A study of Mus musculus with 24 samples.

Results

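The subject here is the contrast between 2 sets of diaphragm macrophage libraries from C57BL/6 wild-type mice, libraries 3, 6 and 9 against libraries 1 and 7. Each library is identified by a number in its column name. The sets were chosen from expression values of these same libraries, so every gene of the contrast took part in the choice, and its values are given as a description without a test. The 5 libraries come from 9 of the 24 columns of the count table, and they are 5 of the 16 libraries that the table yields once columns of one number are summed. The sample labels name 3 subsets, with 5 diaphragm samples each. Which number belongs to which subset is not given by the column names, and no subset name is used for them here.

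RNA was sequenced from bulk populations of macrophages that had been isolated by flow cytometric sorting of 2 tissues, the diaphragm and the dura mater, the outer meningeal membrane. The sample labels give all mice as wild type, 17 weeks of age and in steady state, whereas RAG-1 deficiency and T cell reconstitution appear in the title alone. Vessels were flushed with saline before the tissue was taken. The sources used here do not state how the diaphragm was digested or gated. Diaphragm libraries 2 and 8, and 9 dural libraries with the marks P4, P5 and P6 in their column names serve as context.

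Tissue macrophages fall along an axis described in many organs. At one end stand cells rich in MHC class II and the chemokine receptor CCR2, which are replenished from blood monocytes and present antigen to T cells. At the other end stand perivascular cells that carry the hyaluronan receptor LYVE1 and the folate receptor FOLR2, are low in MHC class II, live long in the tissue and take up debris, iron and proteins. Classical dendritic cells share MHC class II and CD11c with the first kind, so that these markers alone do not separate the 2.

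The libraries held 30132295, 11053351 and 24333191 counts for numbers 3, 6 and 9, and 21265190 and 25748458 counts for numbers 1 and 7. Number 6 had a single column, whereas each of the other 4 was the sum of 2 columns of one number, which differed by little more than counting noise. Columns numbered 4 and 5 held 2115 and 1496 counts and were left out. Levels are given as CPM, counts scaled to library size, with TMM factors over all 16 libraries.

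A gene is called different in the diaphragm when the libraries of the 2 sets do not overlap and the set means differ by at least 2-fold. Of 14760 genes measured, 3565 (24.2%) met this rule. Of these, 1126 (7.63%) were higher in libraries 3, 6 and 9 and 2439 (16.5%) were lower. The sets did not overlap, at any size of difference, in 7313 genes (49.5%). Because the sets were picked from these values, nothing is read from those shares, and they serve only as the background for each gene list. The median log2 ratio over all genes measured was -0.03, and it was -0.26 when levels were scaled by library totals alone. Just inside the 2-fold limit lay Plekhm1, with means of 32.2 CPM in libraries 3, 6 and 9 and 64.5 CPM in libraries 1 and 7. Just outside it lay Crip1, with means of 939.6 CPM in libraries 3, 6 and 9 and 470.1 CPM in libraries 1 and 7.

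The dura gave the same genes a test in libraries that had no part in the choice. Libraries marked P6 were compared with those marked P4 (n = 3 each), a pair of marks that was itself picked with results known. In edgeR's quasi-likelihood test, 4403 of 13239 genes (33.3%) passed an adjusted p of 0.05, with 2118 (16.0%) higher and 2285 (17.3%) lower in P6. With library totals in place of TMM factors, 1598 were higher and 2996 lower. The numbers 1, 3 and 4 recur under each dural mark and may denote shared animals, and the p-values cover no more than the variation among these libraries, which may be technical.

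The 4 genes that mark the contrast were far apart between the sets. H2-Ab1, the beta chain of the MHC class II molecule I-A, stood at 17990, 17570 and 16850 CPM in libraries 3, 6 and 9, against 316.7 and 389.9 CPM in libraries 1 and 7. Ccr2, the receptor that brings monocytes into tissue, stood at 805.4, 1044 and 1033 CPM in libraries 3, 6 and 9, against 19.6 and 23.6 CPM in libraries 1 and 7. Itgax, which encodes CD11c, stood at 439.5, 444.6 and 466.3 CPM, against 13.2 and 7.1 CPM in libraries 1 and 7. For these genes every library of the first set lay far above both of the other set. The log2 ratios of the means were 5.63 for H2-Ab1, 5.48 for Ccr2 and 5.47 for Itgax. Lyve1 ran the other way, at 315.2, 228.6 and 346.4 CPM in libraries 3, 6 and 9, against 1450 and 1541 CPM in libraries 1 and 7, a log2 ratio of -2.33. Lyve1 therefore remained well detected in libraries 3, 6 and 9, at a level above that of any dural library marked P6. In the sorted bulk RNA, fewer cells that express a gene and less RNA per cell cannot be told apart.

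In dura the same 4 genes changed in the same direction. H2-Ab1 was at 15560, 15930 and 14950 CPM in P6 libraries, against 940.3, 1101 and 1060 CPM in P4 libraries, a log2 fold change of 3.91 (SE 0.066, edgeR adjusted p = 2.45e-12). Ccr2 was at 1639, 1458 and 1512 CPM in P6, against 103.7, 47.8 and 33.2 CPM in P4 (log2 fold change 4.66, edgeR adjusted p = 9.45e-07). Itgax was at 169.1, 198.1 and 153.3 CPM in P6, against 10.5, 2.88 and 3.77 CPM in P4 (log2 fold change 5.0, edgeR adjusted p = 9.45e-07). Lyve1 was at 4.86, 5.92 and 14.4 CPM in P6, against 287.1, 248.8 and 282.6 CPM in P4 (log2 fold change -4.99, edgeR adjusted p = 6.87e-07). None of the 4 genes overlapped between the dural marks. The genes lie at chr17:34257689-34269419 (H2-Ab1, plus strand), chr9:124101950-124113557 (Ccr2, plus strand), chr7:128129547-128150657 (Itgax, plus strand) and chr7:110850607-110863239 (Lyve1, minus strand) of GRCm38.

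**Figure D1:**
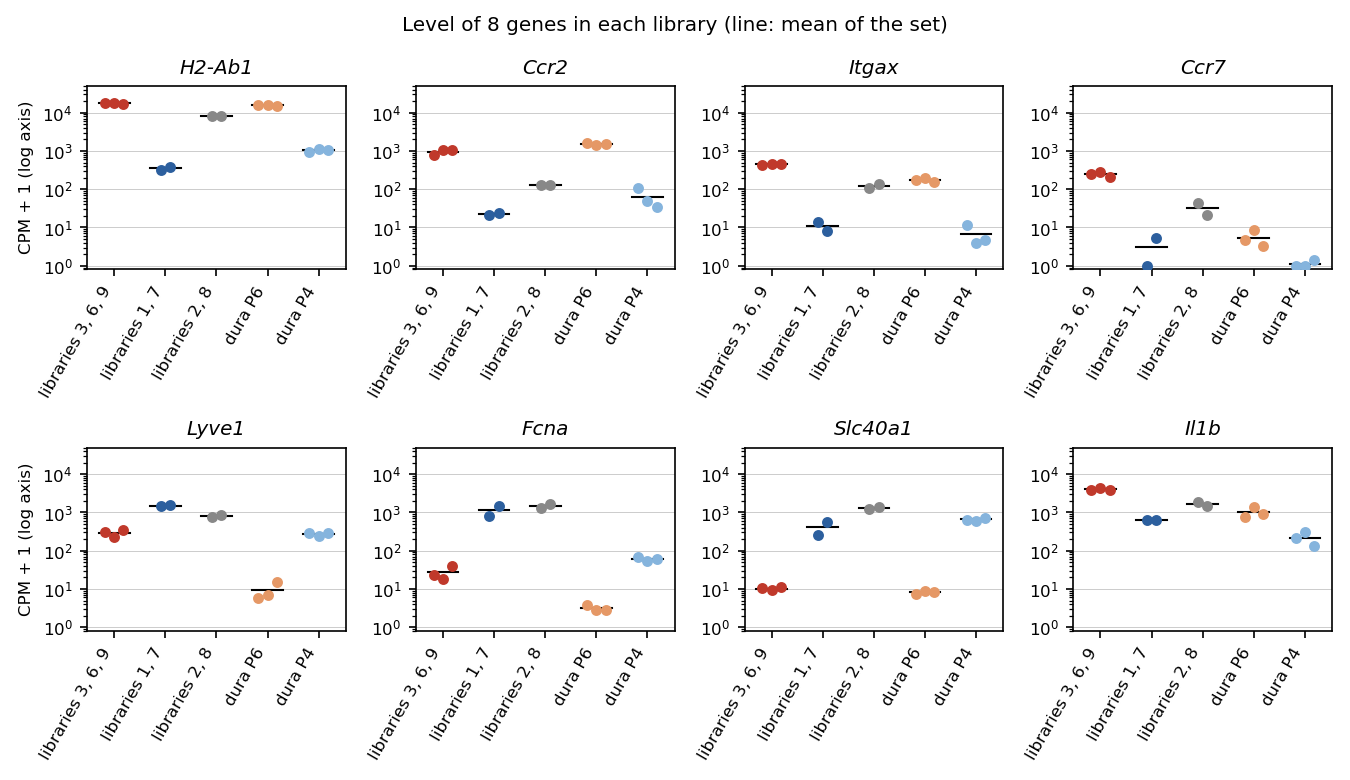
CPM plus 1 on a log axis for 8 genes, with a point per library and a line at the mean, in diaphragm libraries 3, 6 and 9, 1 and 7, 2 and 8, and dura P6 and P4. H2-Ab1 lies between 16850 and 17990 CPM in libraries 3, 6 and 9, against 316.7 and 389.9 CPM in libraries 1 and 7, and Lyve1 lies lower in every one of libraries 3, 6 and 9 than in libraries 1 and 7.

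MHC class II is made of paired alpha and beta chains that load peptides in late endosomes with the help of the invariant chain Cd74 and the exchange factors H2-DM and H2-O. All 11 genes of this list were called higher in libraries 3, 6 and 9, with a median log2 ratio of 5.19. Together they took 8.09, 8.10 and 7.72% of all counts in libraries 3, 6 and 9, against 0.202 and 0.24% in libraries 1 and 7. The chains H2-Eb1 and H2-Aa had log2 ratios of 6.52 and 5.66. Cd74 stood at 39020, 38920 and 35580 CPM in libraries 3, 6 and 9, against 1046 and 1166 CPM in libraries 1 and 7. The 3 libraries lay within a narrow band, and the other 2 lay far beneath it.

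The rest of the loading machinery followed the chains. H2-DMa, a subunit of the peptide exchange factor, stood at 1283, 1233 and 1195 CPM in libraries 3, 6 and 9, against 114.4 and 112 CPM in libraries 1 and 7. Its partner H2-DMb1 stood at 829.2, 790.1 and 782 CPM, against 48.1 and 59.9 CPM in libraries 1 and 7. H2-DMa thus had a smaller log2 ratio, 3.45, than the chains, while it was still clearly present in libraries 1 and 7. H2-Oa, part of the modulator of H2-DM that is best known from B cells and dendritic cells, was at 18.8, 23.8 and 16.9 CPM, against 0.227 and 0.773 CPM in libraries 1 and 7. Ciita, the transactivator of the whole class II family, was at 166.7, 147 and 186.3 CPM, against 3.72 and 6.99 CPM in libraries 1 and 7. H2-Eb1 and H2-Eb2, and H2-DMb1 and H2-DMb2, are similar in sequence, so reads could be split between them in the counting. H2-M2, a non-classical class I gene, was also among the genes of largest ratio, at 47.3, 36.2 and 73.8 CPM in libraries 3, 6 and 9, against 0.454 and 1.47 CPM in libraries 1 and 7. In dura P6, all 11 class II genes rose against P4 in edgeR's test, with a median log2 fold change of 3.35.

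CIITA acts through a compound promoter element, in which the X box binds RFX and the Y box binds NF-Y. The promoters of 4 class II genes of different levels are shown because the whole family moved together. The 150 bases before the annotated start are given 5′ to 3′ on the strand of the gene, from RefSeq on GRCm38.p6. Capitals mark GATTGG on either strand (CCAATC on the other), the Y box core, and AGNAACNG on either strand, an X box core.
H2-Eb1 (chr17:34305717-34305866, plus strand): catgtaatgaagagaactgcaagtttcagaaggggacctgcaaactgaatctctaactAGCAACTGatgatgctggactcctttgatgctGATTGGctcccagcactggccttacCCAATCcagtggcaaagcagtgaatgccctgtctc
H2-Eb2 (chr17:34325525-34325674, plus strand): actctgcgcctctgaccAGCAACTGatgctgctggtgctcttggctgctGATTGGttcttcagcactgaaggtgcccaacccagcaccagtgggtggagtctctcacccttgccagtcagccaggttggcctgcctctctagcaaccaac
H2-DMb1 (chr17:34153041-34153190, plus strand): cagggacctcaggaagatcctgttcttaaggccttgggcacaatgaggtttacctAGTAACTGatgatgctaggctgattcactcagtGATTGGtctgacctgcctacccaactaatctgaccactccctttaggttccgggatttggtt
H2-Aa (chr17:34287824-34287973, minus strand): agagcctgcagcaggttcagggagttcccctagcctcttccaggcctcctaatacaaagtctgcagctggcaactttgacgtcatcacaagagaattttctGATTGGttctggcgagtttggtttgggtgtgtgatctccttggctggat
Of the 11 genes, 8 had an entry in the part of the RefSeq table searched for them. All 8 held GATTGG within 250 bases before and 50 after the start. No entry was found for H2-Ab1, Cd74 and Ciita. The search for these genes skipped a chromosome that the shares over all promoters did not skip. H2-Ab1 on chromosome 17 and Ciita on chromosome 16 do not lie on it. Only for Cd74 may the missing entry therefore reflect the search. Only 4 of the 8 held AGNAACNG in that window. Among all 32851 promoters of the same length, 16.1% held GATTGG and 17.4% held AGNAACNG. A match describes the letters and not a bound site.

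Costimulation, the second signal that a T cell receives from an antigen-presenting cell, was represented by 14 measured genes, of which 9 were called higher and none lower, with a median log2 ratio of 1.2. At a mean of at least 10 CPM in the higher set 5 were called, since Il12b, Il23a, Pdcd1lg2 and Tnfsf4 lay under that level. Tnfsf9, which encodes 4-1BB ligand, stood at 749.3, 657.9 and 635.3 CPM in libraries 3, 6 and 9, against 181.3 and 188.5 CPM in libraries 1 and 7. Cd86, a ligand of CD28, did not separate the sets, at 134.8, 149.9 and 174.2 CPM in libraries 3, 6 and 9, against 124.5 and 162.4 CPM in libraries 1 and 7. Cd80, the other CD28 ligand, was at 37.7, 34.1 and 35.9 CPM, against 20.6 and 20.9 CPM, a difference smaller than 2-fold. Cytokine subunits were low, with Il12b at 5.57, 5.69 and 5.89 CPM in libraries 3, 6 and 9, against 0 and 0.294 CPM in libraries 1 and 7. Some costimulatory ligands were thus called beside class II, and neither CD28 ligand was.

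Genes of monocyte-derived cells were split. Of 20 measured, 11 were called higher and 1 lower, with a median log2 ratio of 1.10. Napsa, an aspartic protease of myeloid cells, stood at 112, 111.2 and 121.2 CPM in libraries 3, 6 and 9, against 19.3 and 14.2 CPM in libraries 1 and 7. Ms4a4c, a membrane protein of monocytes, stood at 49.9, 66.1 and 59.9 CPM, against 10.5 and 7.47 CPM in libraries 1 and 7. Ly6c2, the classical monocyte antigen, was low throughout, at 5.05, 24.9 and 17.7 CPM in libraries 3, 6 and 9, against 3.40 and 3.57 CPM in libraries 1 and 7. Vcan, a proteoglycan of classical monocytes and of connective tissue, was the 1 member called lower, at 3.78, 3.86 and 0.228 CPM, against 23.9 and 17.5 CPM in libraries 1 and 7. Ccr2 was thus high in all of libraries 3, 6 and 9 while Ly6c2 was low in them. In dura P6 against P4, 9 of the 20 genes rose and 1 fell in edgeR's test, while Ly6c2 did not pass (log2 fold change 1.25, edgeR adjusted p = 0.275).

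Genes of conventional dendritic cells gave 10 of 17 called higher and none lower, with a median log2 ratio of 1.62. Flt3, the cytokine receptor on which these cells depend, stood at 41.1, 51 and 30 CPM in libraries 3, 6 and 9, against 1.04 and 0.773 CPM in libraries 1 and 7. Cd209a, which marks monocyte-derived and type 2 dendritic cells, stood at 293.5, 338.4 and 236.3 CPM, against 14.6 and 23.9 CPM in libraries 1 and 7. Xcr1 and Clec9a, markers of cross-presenting type 1 dendritic cells, reached 9.72 to 14.2 CPM and 6.17 to 15.5 CPM in libraries 3, 6 and 9, against 1.86 and 1.66 CPM and 3.04 and 2.98 CPM in libraries 1 and 7. The defining transcription factor Zbtb46 did not follow, at 11.8, 14.3 and 11 CPM in libraries 3, 6 and 9, against 19.9 and 28.4 CPM in libraries 1 and 7. The receptor Kit and the peptidase Dpp4 were not called either. The list summed to 2329, 2294 and 2026 CPM in libraries 3, 6 and 9, against 857.2 and 795.5 CPM in libraries 1 and 7, and its part in the class II result was not tested.

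Among genes of migrating, mature dendritic cells, 7 of 13 were called higher and 1 lower. Ccr7, which guides cells into lymphatic vessels, stood at 242.2, 288.5 and 209.1 CPM in libraries 3, 6 and 9, against 0 and 4.30 CPM in libraries 1 and 7, and its log2 ratio of 6.84 was the largest among the genes named for their size. Ccl22, a ligand of CCR4, stood at 149.8, 157.2 and 117.2 CPM, against 3.86 and 11.7 CPM in libraries 1 and 7. Its relative Ccl17 had 70.7, 35.3 and 20.6 CPM in libraries 3, 6 and 9, against 0 CPM in both of the other set. Ccr7 and Ccl17 were thus clearly present in all 3 libraries and near or at 0 in the other set. Fscn1, an actin bundling protein of mature dendritic cells, was not called, at 89.6, 90.2 and 77.4 CPM, against 78.1 and 78 CPM in libraries 1 and 7. Cd200, an inhibitory ligand also made by endothelium, was lower, at 2.50, 4.47 and 2.01 CPM in libraries 3, 6 and 9, against 65.6 and 51 CPM in libraries 1 and 7. Ccr7 was far less abundant in dura, with means of 4.43 CPM in P6 and 0.129 CPM in P4 (log2 fold change 4.85, edgeR adjusted p = 0.00898).

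Another 2 genes with large ratios encode receptors of leukocytes. Il1r2, the decoy receptor for interleukin 1, stood at 30.8, 43.7 and 24.4 CPM in libraries 3, 6 and 9, against 0.454 and 0.147 CPM in libraries 1 and 7. Adgrg5, an adhesion-class receptor, stood at 29.5, 22.6 and 26 CPM, against 0 and 0.552 CPM in libraries 1 and 7. Both were nearly absent from libraries 1 and 7. Grap2, an adaptor of the Grb2 family, behaved in the same manner, at 22.3, 17.9 and 22.9 CPM, against 0 and 0.589 CPM in libraries 1 and 7. In dura P6 each of these 3 genes rose against P4, with edgeR adjusted p-values of 0.00851 for Il1r2, 0.000101 for Adgrg5 and 2.4e-06 for Grap2.

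**Figure D2:**
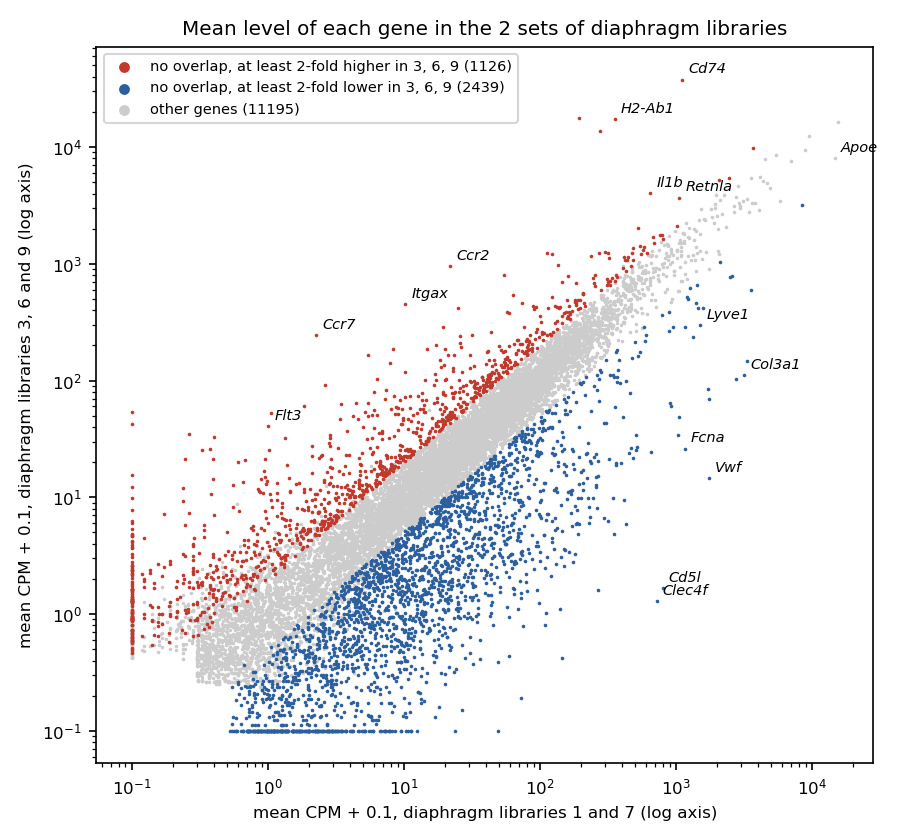
Mean CPM plus 0.1 of every measured gene in libraries 3, 6 and 9 (vertical, log axis) against libraries 1 and 7 (horizontal, log axis). Genes whose libraries do not overlap and whose means differ by at least 2-fold are coloured, 1126 higher and 2439 lower in libraries 3, 6 and 9, and the highest coloured points above the diagonal are the class II genes.

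The programme of LYVE1-type resident macrophages was lower in libraries 3, 6 and 9. Of 24 genes measured, 19 were called lower and none higher, with a median log2 ratio of -1.72. Timd4, the phosphatidylserine receptor TIM-4 of long-lived macrophages, stood at 40.3, 54.4 and 51.1 CPM in libraries 3, 6 and 9, against 346.7 and 459.9 CPM in libraries 1 and 7. Ednrb, the endothelin receptor type B, stood at 37.2, 27.6 and 37.5 CPM, against 453 and 566.3 CPM in libraries 1 and 7. The lectins Cd209f and Cd209g, clustered relatives of DC-SIGN, stood at 4.98 to 9.49 CPM and 1.46 to 4.22 CPM in libraries 3, 6 and 9, against 174.8 and 293.6 CPM and 64.3 and 77.8 CPM in libraries 1 and 7. Because the Cd209 genes resemble each other, reads could be split among them. No library of one set overlapped the other set for these genes.

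Other members kept a substantial level in both sets. Cd163, the haemoglobin scavenger receptor, stood at 576.4, 510.3 and 414.9 CPM in libraries 3, 6 and 9, against 1138 and 1293 CPM in libraries 1 and 7. Stab1, a clearance receptor for modified proteins, stood at 864.2, 595.5 and 873.5 CPM, against 2498 and 2441 CPM in libraries 1 and 7. Gas6, the bridging ligand of TAM receptors, stood at 302.7, 261 and 290.8 CPM, against 1208 and 1132 CPM in libraries 1 and 7. These values show a lower and not an absent programme in libraries 3, 6 and 9. Of the 24 members 5 were not called, among them Mrc1, Pf4, Clec10a and Fxyd2, which are named after their values were seen. Mrc1, the mannose receptor CD206, was at 1246, 1222 and 1145 CPM in libraries 3, 6 and 9, against 1948 and 2196 CPM in libraries 1 and 7. In dura P6, 23 of the 24 genes fell against P4 and 1 rose in edgeR's test, with a median log2 fold change of -2.44.

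Of these 24 genes, 5 are also markers of liver macrophages or of endothelium, namely Lyve1, Folr2, Timd4, Fcna and Vsig4. Without them, 14 of 19 were called lower in libraries 3, 6 and 9, and 18 of 19 fell in dura P6. Fcna, the plasma lectin ficolin A, stood at 22.5, 16.8 and 38.8 CPM in libraries 3, 6 and 9, against 808.5 and 1493 CPM in libraries 1 and 7. Vsig4, a complement receptor of resident macrophages, stood at 2.32, 6.10 and 9.13 CPM, against 377.1 and 473.6 CPM in libraries 1 and 7. Both were the members of largest difference.

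Uptake genes followed the same direction. Of 15 scavenger receptors measured, 8 were called lower and none higher. Among 16 genes of iron and heme handling 6 were lower and none higher. The share called lower over all genes measured was 16.5%. Slc40a1, the iron exporter ferroportin, stood at 9.49, 8.23 and 10.2 CPM in libraries 3, 6 and 9, against 259.4 and 572.1 CPM in libraries 1 and 7. Colec12, a collectin scavenger receptor, had a log2 ratio of -3.62, and Marco, which binds bacteria, one of -7.47. Marco stood at 1.12, 1.63 and 1.78 CPM in libraries 3, 6 and 9, against 152.7 and 382.3 CPM in libraries 1 and 7. Of the lower scavenger receptors, Marco and Cd5l are also in a list of Kupffer cells of the liver. Stab2 is in a list of liver sinusoidal endothelium, and the part of such cells in this count was not tested. In dura P6, 10 of the 15 scavenger receptors fell and 3 rose, Marco among those that rose (log2 fold change 3.74, edgeR adjusted p = 0.0142). In dura P6, Slc40a1 fell against P4, with means of 7.32 and 656.3 CPM for P6 and P4 (log2 fold change -6.48, edgeR adjusted p = 1.71e-11). Ferritin genes Fth1 and Ftl1 were not called in the diaphragm.

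Complement genes gave 1 of 18 called higher, Itgax, and 8 lower, beside 7.63% higher and 16.5% lower over all genes. C4b, which encodes the complement component C4, stood at 28.2, 20.5 and 54.4 CPM in libraries 3, 6 and 9, against 957.3 and 1092 CPM in libraries 1 and 7. C1qa, one chain of the recognition molecule C1q, did not separate the sets, at 4782, 4089 and 4458 CPM, against 4671 and 5050 CPM in libraries 1 and 7. Cd55, a decay-accelerating factor also carried by stromal cells, stood at 0.86, 0.305 and 2.97 CPM in libraries 3, 6 and 9, against 75.9 and 52 CPM in libraries 1 and 7. Neither C1qb nor C1qc, the other chains of C1q, was called, with log2 ratios of 0.11 and -0.20. C4b also fell in dura P6, with means of 47.2 CPM in P6 and 863.5 CPM in P4 (log2 fold change -4.19, edgeR adjusted p = 1.92e-08). Among the 6 Fc gamma receptor genes only Fcgrt, the neonatal Fc receptor, was called, with a log2 ratio of -1.58.

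Genes of apoptotic cell uptake were called lower more often than higher, with 2 of 17 called higher and 7 lower. Over all genes measured the shares were 7.63% higher and 16.5% lower, so the higher count was close to the background. Axl, a TAM receptor, stood at 955.6, 1122 and 1130 CPM in libraries 3, 6 and 9, against 425.7 and 540.5 CPM in libraries 1 and 7. Its ligand Gas6 ran the opposite way, as given with the resident genes. Havcr2, which encodes TIM-3, stood at 51.8, 59 and 64.5 CPM, against 9.44 and 12.7 CPM in libraries 1 and 7. With library totals in place of TMM factors, 11 of the 17 genes were lower and 1 higher, and Axl lost its call there and also without library 1.

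Inflammatory genes gave 8 of 22 called higher and 2 lower, beside 7.63% higher and 16.5% lower over all genes. Il1b, which encodes interleukin 1 beta, stood at 3762, 4437 and 3824 CPM in libraries 3, 6 and 9, against 642.5 and 644.1 CPM in libraries 1 and 7. Il1rn, the antagonist of its receptor, stood at 1145, 1260 and 1122 CPM, against 239 and 233.4 CPM in libraries 1 and 7. Interleukin 1 beta, its antagonist and its decoy receptor were thus all higher in the same 3 libraries. Tnf and Il6 were not called, with Il6 at 133.4, 187.2 and 144.4 CPM in libraries 3, 6 and 9, against 127.5 and 109.5 CPM in libraries 1 and 7. Tnfsf14, the ligand LIGHT, stood at 50.1, 67.1 and 30.3 CPM, against 5.13 and 5.63 CPM in libraries 1 and 7. Il18bp, an inhibitor of interleukin 18, was lower, at 1.16, 4.78 and 8.08 CPM, against 49.9 and 57.5 CPM in libraries 1 and 7. Tnip3, an inhibitor of NF-κB signalling, stood at 422.8, 447.8 and 382.7 CPM, against 24.7 and 24.8 CPM in libraries 1 and 7, and it also rose in dura P6 (log2 fold change 4.47, edgeR adjusted p = 5.06e-05). Il1b rose in dura P6 as well, with means of 1017 CPM in P6 and 215.4 CPM in P4 (log2 fold change 2.25, edgeR adjusted p = 0.000265).

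Digestion can itself raise early response genes in macrophages. Of 26 such genes, 1 was called higher and none lower. That gene was Dusp2, a phosphatase that acts on MAP kinases, at 448.7, 362.8 and 425.5 CPM in libraries 3, 6 and 9, against 98.7 and 82.1 CPM in libraries 1 and 7. The list summed to 40080, 39430 and 35770 CPM in libraries 3, 6 and 9, against 30970 and 30660 CPM in libraries 1 and 7. The sum was somewhat higher beside the inflammatory genes, and its part in that result was not tested. Without library 1, 3 of the 26 genes were called higher. At any size of difference, 15 of the 26 lay wholly above libraries 1 and 7 and 2 wholly below. Over all 14760 genes measured, 3344 lay wholly above and 3969 wholly below. In dura P6, 12 of the 26 genes rose and 1 fell against P4, beside 16.0% and 17.3% of all genes tested there.

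Chemokines moved in both directions. Ccl5, a chemokine that attracts T cells and monocytes, stood at 32, 38.4 and 32.2 CPM in libraries 3, 6 and 9, against 3.95 and 1.62 CPM in libraries 1 and 7. Cxcl16, a scavenger and ligand of CXCR6, stood at 446.6, 543.9 and 472.8 CPM, against 194.8 and 196.1 CPM in libraries 1 and 7. Ccl8, which is made by resident macrophages, stood at 3.40, 7.22 and 6.21 CPM, against 51.1 and 48.8 CPM in libraries 1 and 7. Ccl24, an eotaxin, was also lower, at 70.8, 70.8 and 57.5 CPM in libraries 3, 6 and 9, against 265.2 and 277.1 CPM in libraries 1 and 7. Of 16 CC chemokines 4 were called higher and 4 lower, and of 13 CXC chemokines 6 were higher and 3 lower. The shares over all genes measured were 7.63% higher and 16.5% lower. Cxcl13, which attracts B cells, had the largest CXC difference, at 13.1, 26 and 34.2 CPM in libraries 3, 6 and 9, against 435.1 and 865.8 CPM in libraries 1 and 7. In dura P6, Ccl5 rose, whereas Ccl8 and Ccl24 fell against P4, with edgeR adjusted p-values of 2.33e-06, 9.88e-09 and 2.18e-09.

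Genes that interleukin 4 induces in macrophages were called higher more often than lower. Retnla, the secreted protein RELMα, stood at 3917, 3431 and 3695 CPM in libraries 3, 6 and 9, against 1127 and 976 CPM in libraries 1 and 7. Of 17 genes of alternative activation, 8 were called higher and 2 lower. Over all genes measured the shares were 7.63% higher and 16.5% lower, so the lower count was not above the background. Alox15, a lipoxygenase typical of peritoneal macrophages, was lower, at 5.46, 6.10 and 2.42 CPM, against 91.6 and 82.8 CPM in libraries 1 and 7. In dura P6, 4 of the 14 genes tested rose and 5 fell against P4, beside 16.0% and 17.3% of all genes tested there. Retnla was among those that rose, at a lower level than in the diaphragm, with means of 113.3 CPM in P6 and 9.82 CPM in P4 (log2 fold change 3.51, edgeR adjusted p = 1.18e-05).

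Growth factors and matrix enzymes were divided evenly, with 9 of 30 called higher and 9 lower, beside 7.63% and 16.5% over all genes. Areg, an EGF receptor ligand, stood at 171.5, 179.1 and 143.5 CPM in libraries 3, 6 and 9, against 25.3 and 21 CPM in libraries 1 and 7. Vegfa, the vascular growth factor, stood at 128.8, 136.7 and 119.7 CPM, against 23.3 and 22.5 CPM in libraries 1 and 7. Mmp12, the macrophage elastase, stood at 198.4, 207.9 and 157.8 CPM, against 13.2 and 3.09 CPM in libraries 1 and 7. These 3 genes were high in all of libraries 3, 6 and 9. Bmp2, a morphogen, was lower, at 50.4, 32.3 and 48.1 CPM in libraries 3, 6 and 9, against 278.6 and 332.7 CPM in libraries 1 and 7. Pdgfc, a mitogen for stromal cells, was lower too, at 10.8, 13.4 and 8.22 CPM, against 42 and 47.1 CPM in libraries 1 and 7. In dura, Mmp12 and Areg rose and Bmp2 and Pdgfc fell in P6 against P4, while Vegfa did not pass (edgeR adjusted p = 0.349).

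Among transcription factors of the lineage, 4 of 24 were called higher and 4 lower. Over all genes measured the shares were 7.63% higher and 16.5% lower, so the lower count was close to the background. Runx3, which acts in CD11c-positive cells, stood at 145.2, 132.5 and 129.1 CPM in libraries 3, 6 and 9, against 22.9 and 16.4 CPM in libraries 1 and 7. Irf4, needed for type 2 dendritic cells, stood at 145.4, 157.3 and 130.4 CPM, against 58.5 and 50.4 CPM in libraries 1 and 7. Maf, a factor of resident macrophages, was lower, at 379.5, 293.8 and 488.4 CPM, against 776.7 and 980.7 CPM in libraries 1 and 7. Gata6, the factor of peritoneal macrophages, was at 1.46, 0 and 1.64 CPM, against 28.8 and 19.8 CPM in libraries 1 and 7. The lineage factor Spi1, which encodes PU.1, was not called, at 493, 407.3 and 492.7 CPM in libraries 3, 6 and 9, against 291.6 and 392.5 CPM in libraries 1 and 7.

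Of 20 integrin genes 4 were called higher, Itgax, Itgb7, Itga4 and Itga5, and 5 lower. The shares over all genes measured were 7.63% higher and 16.5% lower. Itgb7, a partner of the alpha 4 and alpha E chains, stood at 136.8, 104.7 and 118.4 CPM in libraries 3, 6 and 9, against 15.5 and 30.1 CPM in libraries 1 and 7. Its partner Itga4 stood at 181.8, 209.2 and 220.1 CPM, against 67 and 76.2 CPM in libraries 1 and 7. Both chains were higher in each of libraries 3, 6 and 9, and both rose in dura P6 (edgeR adjusted p = 3.55e-05 for Itgb7 and 0.00122 for Itga4). Among C-type lectin receptors, 9 of 24 were called higher and 6 lower. Clec7a, the receptor dectin-1 for fungal glucans, stood at 416.3, 444.4 and 445.5 CPM, against 69.7 and 108.7 CPM in libraries 1 and 7. Clec4b1 stood at 56.5, 53 and 52.9 CPM, against 4.77 and 5.44 CPM in libraries 1 and 7.

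Metabolic lists differed in how many genes were called. None of 18 genes of oxidative phosphorylation was called in either direction, and 3 of 18 glycolysis genes were called higher. Among these 3, Slc2a1, the glucose transporter GLUT1, stood at 169.9, 192 and 175.7 CPM in libraries 3, 6 and 9, against 45 and 37 CPM in libraries 1 and 7. Of 22 genes of cholesterol synthesis and uptake 7 were called higher and none lower, but 2 were called when levels were scaled by library totals. Of 19 lipid-handling genes 3 were called higher, 1 lower and 15 in neither direction. The list summed to 15780, 16510 and 18410 CPM in libraries 3, 6 and 9, against 25090 and 27480 CPM in libraries 1 and 7. Against that lower sum, Spp1, which encodes osteopontin, stood at 38.5, 55.2 and 45.2 CPM in libraries 3, 6 and 9, against 4.22 and 2.35 CPM in libraries 1 and 7. Lgals3, which encodes galectin 3, stood at 559.7, 556.4 and 455.2 CPM in libraries 3, 6 and 9, against 114.1 and 130.9 CPM in libraries 1 and 7.

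Cell cycle genes were called in 1 direction in the diaphragm. Of 25 cell cycle genes, 11 were called higher and none lower, with a median log2 ratio of 0.90. Mki67, the antigen Ki-67, stood at 33.3, 24.4 and 21.3 CPM in libraries 3, 6 and 9, against 5.90 and 5.15 CPM in libraries 1 and 7. Rrm2, a subunit of ribonucleotide reductase, stood at 31.4, 27.3 and 22.8 CPM, against 9.26 and 9.93 CPM in libraries 1 and 7. Genes of DNA licensing were not called, as the MCM genes differed by less than 2-fold. In dura P6, 24 of the 25 genes rose against P4 and 1, Cenpf, fell, with a median log2 fold change of 1.95.

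Of 24 Toll-like receptors and adaptors 5 were called higher and 1 lower, and with library totals 2 were called higher. The shares over all genes measured were 7.63% higher and 16.5% lower. The 23 interferon-stimulated genes gave 2 higher and 4 lower, close to the background shares, and 1 lower without library 3 or 2 without library 7.

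**Figure D3:**
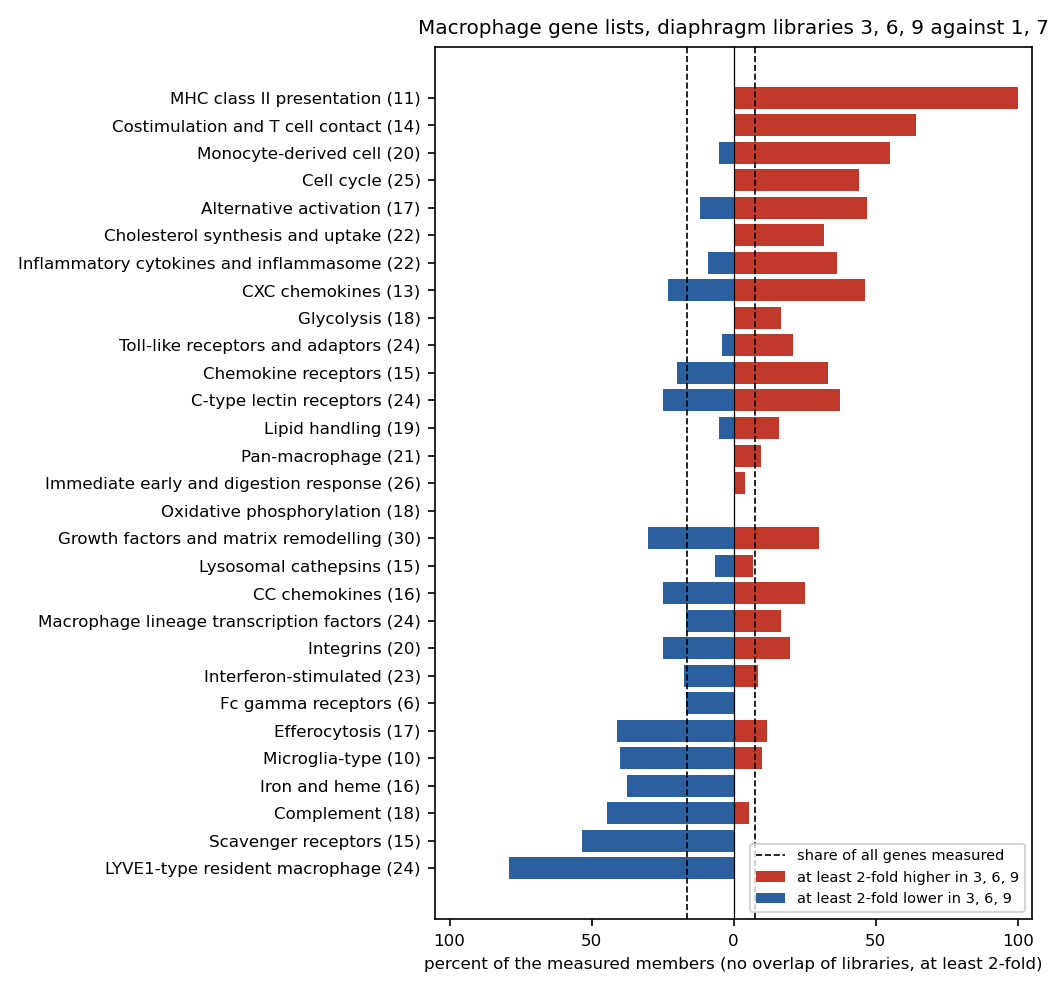
Percent of the measured members of each macrophage gene list called higher (right) or lower (left) in libraries 3, 6 and 9, with the number measured in brackets and dashed lines at the shares over all genes, 7.63% and 16.5%. The class II list lies at 100% on the right, and that of LYVE1-type resident macrophages reaches furthest to the left of the lists drawn.

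Genes shared by all macrophages differed little in size between the sets. Of 21 measured, 15 lay wholly above and 3 wholly below libraries 1 and 7 in libraries 3, 6 and 9. Over all 14760 genes measured, 3344 lay wholly above and 3969 wholly below, so the list leaned to higher levels. Its median log2 ratio was 0.38, and only 2 genes, Cd14 and Cx3cr1, were called higher and none lower at 2-fold. The list summed to 52360, 51440 and 54040 CPM in libraries 3, 6 and 9, against 48360 and 51180 CPM in libraries 1 and 7. Csf1r, the receptor for the survival factor of macrophages, stood at 3231, 3188 and 3466 CPM, against 3357 and 3822 CPM in libraries 1 and 7. Adgre1, which encodes F4/80, stood at 1180, 1117 and 1203 CPM, against 1084 and 1079 CPM in libraries 1 and 7. Defining macrophage genes were thus high in all 5 libraries. Both genes were named after their values were seen. Scaling to this summed list gave 1004 genes higher and 2593 lower in libraries 3, 6 and 9.

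Markers of other cell types moved with the contrast. All 22 fibroblast genes were called lower, and the list summed to 1767, 1015 and 1077 CPM in libraries 3, 6 and 9, against 24160 and 12420 CPM in libraries 1 and 7. Col3a1, a fibrillar collagen, stood at 199.1, 47 and 89.9 CPM, against 4270 and 2002 CPM in libraries 1 and 7. Pdgfra, a receptor that defines fibroblasts, stood at 4.11, 1.12 and 1.92 CPM, against 130.7 and 86 CPM in libraries 1 and 7. Library 1 held more stromal transcripts than library 7 for both genes, and neither library was near 0. Of 21 endothelial genes 19 were called lower, with summed levels of 1506, 1337 and 1404 CPM, against 6570 and 6261 CPM in libraries 1 and 7. Vwf, von Willebrand factor, stood at 18.6, 16.4 and 8.49 CPM, against 1818 and 1663 CPM in libraries 1 and 7. Of 14 mesothelial genes 12 were lower, 4 of them at 10 CPM or more in libraries 1 and 7, with sums of 12.1, 3.25 and 17 CPM, against 102.5 and 244.1 CPM in libraries 1 and 7, and Msln was at 0 in all of libraries 3, 6 and 9.

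Markers of macrophages from other sites were found as well. Of 14 genes of large peritoneal macrophages, 12 were called lower, and the pan-leukocyte gene Laptm5 was one of the 2 that were not. Prg4 and Alox15 illustrate the list, with Alox15 given above and Prg4 at 1.98, 9.05 and 2.97 CPM in libraries 3, 6 and 9, against 98.2 and 116.4 CPM in libraries 1 and 7. Clec4f, a lectin known from the Kupffer cells of the liver, stood at 1.98, 1.42 and 0.183 CPM, against 414.8 and 1021 CPM in libraries 1 and 7. Cd5l, a secreted scavenger-family protein of Kupffer and other resident macrophages, stood at 1.5, 0.712 and 2.46 CPM, against 553.3 and 1033 CPM in libraries 1 and 7. The liver lists were drawn up after these values were seen. Of 13 Kupffer cell genes 11 were lower, with sums of 531.8, 499.3 and 646.3 CPM, against 4629 and 7411 CPM in libraries 1 and 7. Of 11 genes of liver sinusoidal endothelium 10 were lower, among them Stab2 at 0.0374, 0 and 0.913 CPM, against 140.9 and 149.2 CPM in libraries 1 and 7. Transcripts of hepatocytes were present in all 5 libraries, and Alb, serum albumin, was at 182.1, 275.3 and 498.2 CPM in libraries 3, 6 and 9, against 273.9 and 534.3 CPM in libraries 1 and 7. Of 20 hepatocyte genes, 1 was called lower and none higher, and of 19 genes of skeletal muscle, 1 was called higher and none lower. The part of the stromal, endothelial, peritoneal and liver transcripts in the lower genes of libraries 3, 6 and 9 was not tested.

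Several of the genes with the lowest ratios belong to these other lists. Of the 12 named for the lowest ratios, Clec4f, Cd5l and Marco are in the Kupffer list and Stab2, Oit3 and Gpr182 in that of liver sinusoidal endothelium. Vwf is endothelial, Saa3 is an acute phase gene, and Col8a2 is a collagen. Slco2a1, a prostaglandin transporter, stood at 0.336, 0.305 and 2.15 CPM, against 101.9 and 120.1 CPM in libraries 1 and 7. The genes named as well expressed in both sets were drawn outside the lists of other cell types made first, not outside the 3 added later. They include Fcna, a member of the Kupffer list, and several encode matrix proteins. Bgn, the proteoglycan biglycan, stood at 75.3, 37.1 and 32.8 CPM, against 1246 and 834.2 CPM in libraries 1 and 7. In dura P6, 17 of 22 fibroblast genes fell and 1 rose against P4, and stromal transcripts moved with the test there too, and their part in it was not tested. For endothelium 3 of 20 genes fell and 1 rose in dura, and without the library 3 P6 13 fell.

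**Figure D4:**
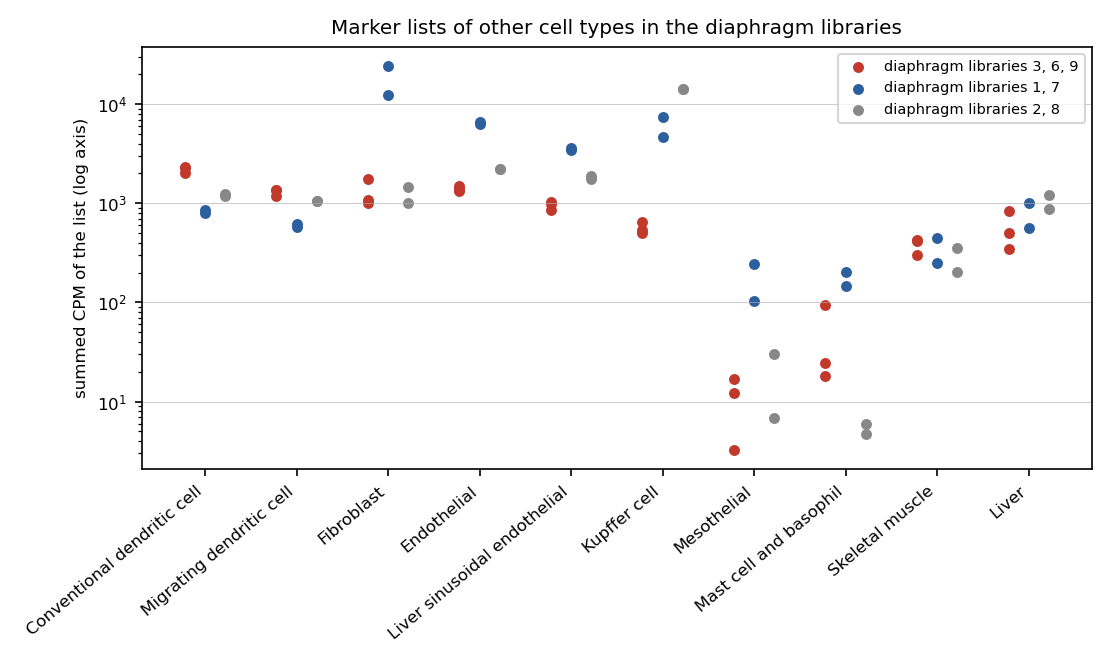
Summed CPM on a log axis of marker lists of other cell types in diaphragm libraries 3, 6 and 9, 1 and 7, and 2 and 8, with a point per library. Fibroblast sums are 1015 to 1767 CPM in libraries 3, 6 and 9, against 12420 and 24160 CPM in libraries 1 and 7, and Kupffer sums are highest in libraries 2 and 8.

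Lymphocyte and mast cell markers were low. The T cell list summed to 63.4 to 69.6 CPM in libraries 3, 6 and 9, against 64.6 and 65.4 CPM in libraries 1 and 7. Of its 12 measured genes 3 were called higher, Il7r, Tcf7 and Lat. Il7r, the interleukin 7 receptor, stood at 20.9, 31.2 and 24 CPM, against 0.908 and 0.92 CPM in libraries 1 and 7. Tcf7 and Lat stayed low, with means of 3.21 and 1.36 CPM in libraries 3, 6 and 9, against 0.214 and 0.422 CPM in libraries 1 and 7. The mast cell proteases differed within the first set, as Mcpt4 was at 2.21, 17 and 0 CPM in libraries 3, 6 and 9, against 34.3 and 45.5 CPM in libraries 1 and 7. Library 6 thus stood apart from libraries 3 and 9 for this gene.

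The libraries within each set were compared with one another. Among 9251 genes with at least 10 CPM in the higher set, 1305 (14.1%) spread over 2-fold or more among libraries 3, 6 and 9, and 335 (3.62%) did so between libraries 1 and 7. Between pairs the count was 697 for libraries 3 and 9, 760 for 6 and 9, and 844 for 3 and 6. Library 3 alone carried the lymphatic receptor Flt4, at 25.3 CPM, against 0.712 and 1.19 CPM in libraries 6 and 9. Igkc, an immunoglobulin light chain, was likewise at 52.9 CPM in library 3, against 5.59 and 6.71 CPM in libraries 6 and 9.

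Libraries 2 and 8 gave another pattern. The class II genes took 4.16 and 4.09% of their counts, between the sets, and Ccr2 stood at 128.3 and 128.4 CPM, also between. Lyve1, at 780.9 and 847.6 CPM, lay between the sets as well. Of the 1126 genes called higher in libraries 3, 6 and 9, 412 (36.6%) had libraries 2 and 8 between the sets, 194 (17.2%) had both with or beyond libraries 1 and 7, 148 (13.1%) had both with or beyond libraries 3, 6 and 9, and 372 (33%) had them split. Of the 2439 called lower, 639 (26.2%) had them between, 258 (10.6%) with or beyond libraries 1 and 7, 733 (30.1%) with or beyond libraries 3, 6 and 9, and 809 (33.2%) split. Fibroblast sums in libraries 2 and 8 were 1014 and 1464 CPM, as low as in libraries 3, 6 and 9, while Kupffer sums were 14170 and 14350 CPM, above those of every one of the 5 libraries. Clec4f stood at 3212 and 3304 CPM there. The Kupffer and stromal markers thus did not move together across the 7 diaphragm libraries. Timd4 and Vsig4 were higher in libraries 2 and 8 than in libraries 1 and 7, although Lyve1 was lower.

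Set beside the dural test, genes called in the diaphragm were often called in the same direction. Of the 923 genes higher in libraries 3, 6 and 9 that were also tested in dura, 568 (61.5%) were higher and 17 (1.84%) lower in P6. Of the 1984 lower genes tested in dura, 1083 (54.6%) were lower and 15 (0.756%) higher in P6. Of the 9950 genes not called in the diaphragm, 1533 (15.4%) were higher and 1093 (11%) lower in P6. The 2 comparisons share no library, but the dural marks were picked with results of these data known, so these shares are not an independent check. Among 199 named genes tested in dura, 151 passed the threshold, 143 in the direction of the diaphragm ratio and 8 against it.

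**Figure D5:**
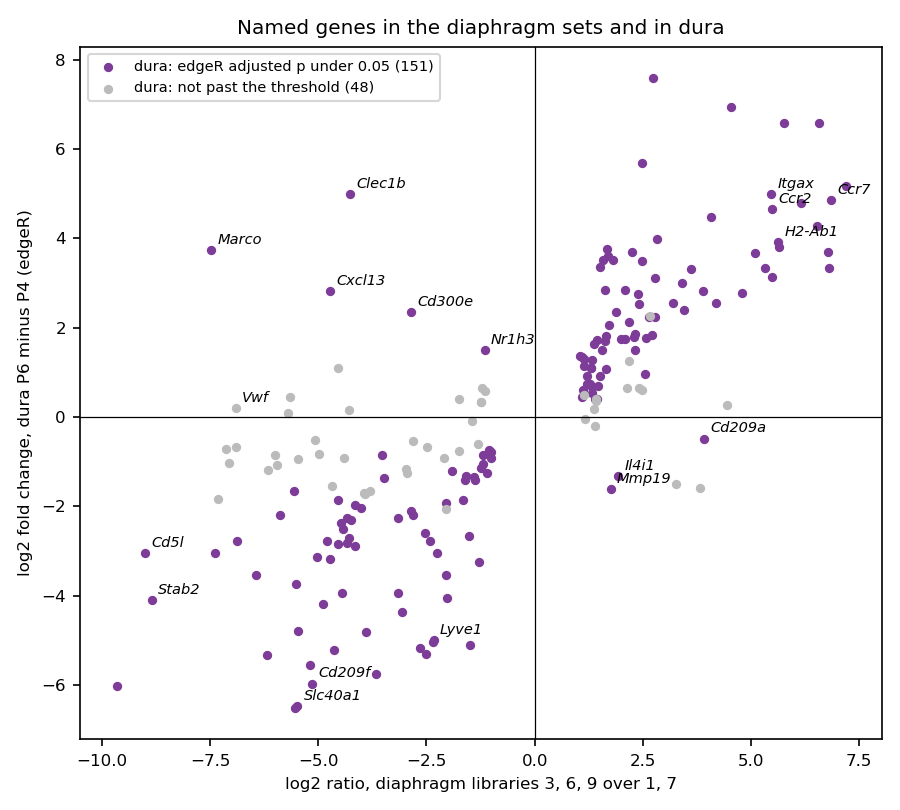
Log2 ratio of libraries 3, 6 and 9 over 1 and 7 (horizontal) and edgeR log2 fold change of dura P6 minus P4 (vertical) for the 199 named genes tested in dura, 151 of which passed an adjusted p of 0.05. H2-Ab1, Ccr2 and Itgax lie at the upper right and Lyve1 at the lower left, while Marco, Cxcl13 and Clec1b lie at the upper left.

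Some genes with large diaphragm ratios did not pass in dura or passed in the other direction, and 1 library decided several of these values. Vwf had means of 92.6 CPM in P6 and 81.2 CPM in P4 (log2 fold change 0.19, edgeR adjusted p = 0.902). Library 3 P6 held 255 CPM, and without it Vwf fell (log2 fold change -2.82, edgeR adjusted p = 0.0101). Gpr182, with a diaphragm log2 ratio of -7.12, did not pass in dura (log2 fold change -0.72, edgeR adjusted p = 0.638), and without library 3 P6 it fell (log2 fold change -3.77, edgeR adjusted p = 0.0213). Spp1, higher in libraries 3, 6 and 9, had means of 37.9 CPM in P6 and 114.6 CPM in P4 and did not pass (log2 fold change -1.58, edgeR adjusted p = 0.277). Library 1 P4 held 316.5 CPM of Spp1, and without it the log2 fold change was 1.46 (edgeR adjusted p = 0.135). Cd209a, higher in libraries 3, 6 and 9, fell in dura P6, with means of 65.5 CPM in P6 and 91.9 CPM in P4 (log2 fold change -0.48, edgeR adjusted p = 0.036). Cd209a did not pass without library 1 P4, 3 P6 or 4 P6, with edgeR adjusted p-values of 0.138, 0.092 and 0.134. Whether these genes differ between the tissues was not tested.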

How the data were processed

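Counts of reads per gene were deposited in one table for bulk-sorted diaphragm and dural macrophages. The values are whole-number counts, although the file is called normalised. Build GRCm38, the aligner STAR (2.4.0j), the counter featureCounts and the package DESeq2 (1.20.0) are listed, without roles, in the submitters' processing notes. The kit was unstranded per the labels' protocols, so antisense and overlapping genes cannot be separated. Columns of one number with and without a prefix were summed as repeat runs. The 6 such pairs had chi-square per degree of freedom of 1.01 to 1.17, against 11.4 to 263 for other pairs of columns. Nothing states that libraries came from separate animals.

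Levels are CPM with TMM factors over 16 libraries (edgeR 4.0.16, R 4.3.3), and genes were kept by filterByExpr. The diaphragm contrast is a description. Where a set had no count, no ratio is given. Dura P6 against P4 was tested with edgeR's quasi-likelihood F-test over 9 dural libraries with Benjamini-Hochberg adjustment, and the code was tested on simulated counts. The alternative tools were DESeq2 1.42.0 and limma 3.58.1.

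The members, the 49 gene lists and the dural marks were chosen with earlier results of these data known, and 3 lists (Kupffer cell, liver sinusoidal endothelium, lymphatic endothelium) after seeing values here. Named were the 4 markers, the 12 genes of highest and 12 of lowest ratio at 20 CPM or more in the higher set and 10 counts or more in the lower, 8 and 8 at 20 CPM or more in both sets outside the lists of other cell types except those 3, and up to 5 called members in each direction of each list. Some further list members, among them those not called in lists over 15 genes, were named after their values were seen. Gene coordinates are from GENCODE on GRCm38. A few genes chosen by the naming rule are not reported here.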

Additional observations from a re-analysis of the deposited data

Results flagged for a closer look

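For 9 of the named genes, every library of dura P6 lay on one side of P4. Libraries 3, 6 and 9 lay on the opposite side of libraries 1 and 7. The difference between the tissues was not tested for any of them. Over all genes called in the diaphragm and tested in dura, 17 of those higher in libraries 3, 6 and 9 were lower in P6. Of those lower in libraries 3, 6 and 9, 15 were higher in P6. Marco had a log2 fold change of 3.74 in dura P6 against P4 (edgeR adjusted p = 0.0142) and a diaphragm log2 ratio of -7.47. Its dural level was low, with means of 1.23 CPM in P6 and 0.0786 CPM in P4. Cxcl13 gave 2.83 in dura (edgeR adjusted p = 9.05e-05), with means of 16.4 CPM in P6 and 2.36 CPM in P4, and -4.73 in the diaphragm. Clec1b, the receptor CLEC-2, gave 5.0 in dura (edgeR adjusted p = 0.00544) at means under 1 CPM, and -4.27 in the diaphragm. Cd300e, an activating receptor of monocytes, gave 2.35 in dura (edgeR adjusted p = 0.0353) and -2.86 in the diaphragm. Cd300e did not pass without library 3 P4, 3 P6 or 4 P6, with edgeR adjusted p-values of 0.0778, 0.0932 and 0.0736. Nr1h3, which encodes the oxysterol receptor LXRα, gave 1.5 in dura (edgeR adjusted p = 0.00133) and -1.15 in the diaphragm. Nr1h3 lost its diaphragm call without library 7.

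In the other direction, Il4i1, a secreted amino acid oxidase, gave -1.32 in dura (edgeR adjusted p = 0.000522) and 1.92 in the diaphragm. Mmp19, a matrix metalloproteinase, gave -1.62 in dura (edgeR adjusted p = 0.000182) and 1.76 in the diaphragm. Tlr3, the receptor for double-stranded RNA, gave 0.34 in dura and -1.23 in the diaphragm, and Itga8, an integrin chain, gave 0.40 and -1.75. These last 2 did not pass in dura (edgeR adjusted p = 0.0522 and 0.253), although Tlr3 passed without library 1 P4 (edgeR adjusted p = 0.0421). Tlr3 lost its diaphragm call without diaphragm library 1 or 6. Marco, Clec1b and Nr1h3 are members of the Kupffer cell list, which summed to 531.8, 499.3 and 646.3 CPM in libraries 3, 6 and 9, against 4629 and 7411 CPM in libraries 1 and 7. In dura that list summed to 133.8 to 192.1 CPM in P6 and 1439 to 1636 CPM in P4, so the sum fell whereas these 3 genes rose. Of its members, Clec4f and Cd5l had means of 0.0867 and 3.38 CPM in dura P4, and Fcna one of 59.6 CPM. The part of the list in these differences was not tested.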

How the results depend on the processing

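No gene called in both the reported and an alternative comparison was called in opposite directions. The median log2 ratio of all diaphragm genes, -0.03, was 0.02 at 10 CPM and 0.01 without library 7, and the dural median, just below 0, was 0.01 without library 4 P4. In the diaphragm, 647 genes were higher and 1234 lower in libraries 3, 6 and 9 when a mean of at least 10 CPM in the higher set was required, and 482 were higher and 1668 lower with a 4-fold limit. With each library left out in turn, 1248 to 1560 genes were higher and 2614 to 3240 lower. Library totals alone gave 808 higher and 2926 lower, and moved the median log2 ratio of all genes to -0.26, while scaling to the summed pan-macrophage list moved it to -0.11. In dura, with each library left out in turn, 1748 to 1965 genes rose and 1875 to 2169 fell. With the dural number as a replicate block, 2520 rose and 2596 fell. Deviations of same-numbered dural libraries correlated at 0.0476 to 0.167, so the numbers were not taken as pairs. Of 228 named genes called in the diaphragm, 29 lost the call at 10 CPM in the higher set, 13 with library totals and at most 8 without any 1 library. Depth limits ratios with few counts in 1 set, as for Tcf7 and Lat, with 239 and 90 counts summed over libraries 3, 6 and 9, against 10 and 22 counts over libraries 1 and 7.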

Other observations

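Several smaller lists held single genes that differed between the sets. Of 10 genes of nonclassical monocytes, which patrol vessels, 1 was called higher and 3 lower in libraries 3, 6 and 9. The shares over all genes measured were 7.63% higher and 16.5% lower. Spn, which encodes CD43, stood at 72.1, 95.5 and 74.5 CPM in libraries 3, 6 and 9, against 20.7 and 33.2 CPM in libraries 1 and 7. Ear2, a ribonuclease of eosinophils and of some macrophages, stood at 119.4, 85.1 and 71.8 CPM, against 10.8 and 22 CPM in libraries 1 and 7, and it rose in dura P6 (log2 fold change 5.68, edgeR adjusted p = 4.8e-07). Ear2 is one of a gene cluster of near-identical members, so its counts are uncertain.

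Of 10 microglia-type genes measured, 4 were called lower and 1 higher, beside 16.5% lower and 7.63% higher over all genes. P2ry12, a purine receptor of resident brain macrophages, stood at 43.5, 45.6 and 40.9 CPM in libraries 3, 6 and 9, against 98.7 and 107.4 CPM in libraries 1 and 7. Siglech, a sialic acid receptor of microglia and plasmacytoid dendritic cells, stood at 6.43, 12.3 and 12 CPM, against 54.5 and 43 CPM in libraries 1 and 7. Both fell in dura P6, with edgeR adjusted p-values of 3.34e-06 and 4.14e-09. Klrk1, the receptor NKG2D of lymphocytes, stood at 17.9, 23.7 and 27.1 CPM in libraries 3, 6 and 9, against 2.50 and 5.15 CPM in libraries 1 and 7, while the list of innate lymphoid and NK cells summed to 79 to 97.8 CPM, against 27.6 and 33.8 CPM in libraries 1 and 7.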
